A study of Nematostella vectensis with 16 samples.

Results

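Whole starlet sea anemones (Nematostella vectensis, an estuarine cnidarian) that had been kept with mercury (Hg) were compared directly with anemones kept with copper (Cu) by RNA sequencing. The comparison holds 6 of the 16 libraries of the series, namely all 3 Hg pools (Hg 1 to Hg 3) and all 3 Cu pools (Cu 1 to Cu 3), chosen by the metal in their labels. Each pool was 5 anemones aged 2 to 4 months, held for 24 h with HgCl2 or CuCl2 at 100 µg/L. All animals had been raised in the dark at 18 °C in artificial seawater of 12.5 ppt. The other 10 libraries are 4 untreated controls and 3 pools each for CdCl2 (Cd) and ZnCl2 (Zn) at the same concentration and time, with animals of the same age. For the controls no number of animals and no holding time was recorded here. The 10 libraries enter no mean of the comparison and are used as points of reference. The labels do not say whether the concentration is of the metal or of its chloride. A mercury atom is heavier than a copper atom, so equal masses of metal hold fewer atoms of mercury. A single concentration and time were measured, and 5 whole animals were combined in each pool, so a change in 1 tissue cannot be told apart from a change in all, nor fewer cells of a type from less RNA per cell. The sources used here give no strain, clone or sex.

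Mercury has no known role in animal cells. Its ions bind tightly to the thiol groups of proteins and of glutathione. Copper is an essential cofactor of enzymes such as cytochrome c oxidase and copper-zinc superoxide dismutase, and cells import, chaperone and export it with dedicated proteins, but free copper in excess drives redox reactions and displaces other metals. Both metals are known in many animals to induce metal-binding and stress proteins such as metallothioneins and heat shock proteins. The gene models here carry identifiers that the deposited tables do not pair with names, and 0 of the 27273 identifiers matched the table of 38762 RefSeq genes (assembly jaNemVect1.1). No gene is therefore described by its function, and no list of metal-binding or stress genes is described.

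The 6 libraries held between 5494659 counts (Hg 1) and 8113825 counts (Hg 3), and the Cu libraries between 5698389 and 7200099. A gene at 1 CPM (a count divided by the scaled library size, given per 1000000) thus had about 5 to 8 counts in a library. Chi-square divided by its degrees of freedom, which is near 1 for pure counting error, was 8.26 to 11.5 between pairs of Hg pools and 5.85 to 8.44 between pairs of Cu pools, so no library repeated another. The first principal component of log2 CPM over the 6 libraries held 39.7% of the variance and had the 3 Hg pools on its positive side (15.4 to 39.9) and the 3 Cu pools on its negative side (-35 to -23.6). The second held 21.3% and set Hg 3 (41.2) and Cu 3 (20) apart from the other 4 pools (-24.2 to -10.9). Hg 3 and Cu 3 thus stood apart within their groups on the second component, and counts are given with and without them.

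Genes with a mean of at least 5 CPM in the 6 libraries numbered 11576. Hg 3 lay at least 2-fold above both other Hg pools in 84 of them and as far below in 28. Cu 3 lay as far above both other Cu pools in 42 and below in 26. Other pools also stood apart by this rule, with 62 genes above and 47 below in Hg 1 and 28 and 41 in Cu 2. The genes high in Hg 3 and those high in Cu 3 shared 26 genes, 31% of the Hg 3 set and 61.9% of the Cu 3 set. The 26 genes summed to 545 CPM in Hg 3 and 564 CPM in Cu 3, against 67.6 to 134 CPM in the other 4 pools. In the libraries that had no part in choosing them, they summed to 456 to 834 CPM in controls 1 and 2, Cd 1 and Zn 3, and to 63.6 to 118 CPM in the other 6. Between Hg and Cu 14.2% of all tested genes were called (edgeR, threshold below), against 0 of these 26 genes and 2 and 0 of the 84 and 42. The sets were picked for spread within a metal, which itself makes a call less likely, so nothing is read from these counts. A high level in 1 or more libraries of every group was therefore seen for these genes, whether or not a metal had been added.

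**Figure D1:**
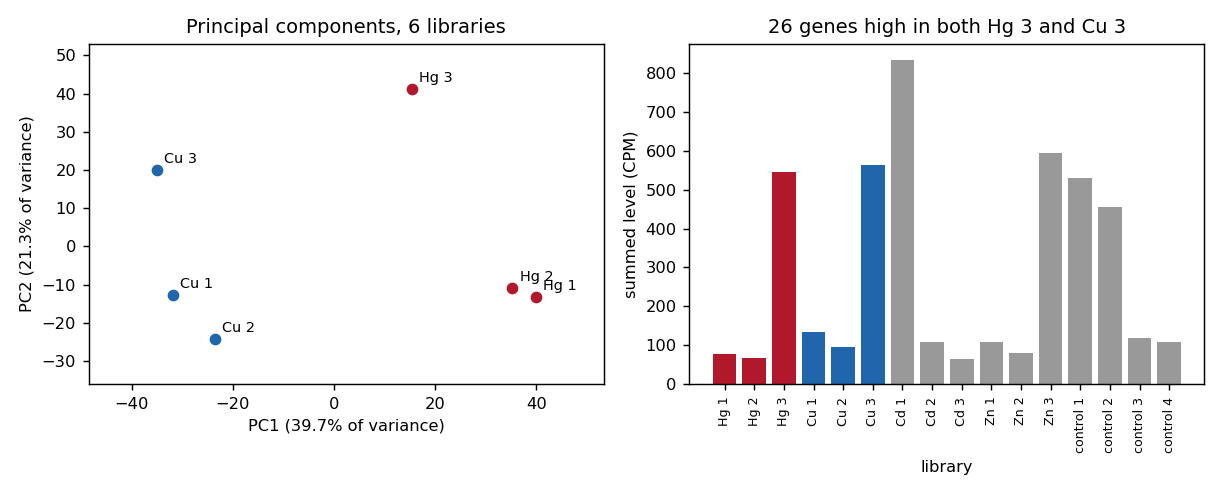
Left, the 6 libraries on the first and second principal components of log2 CPM, Hg in red and Cu in blue. Right, the summed CPM of the 26 genes at least 2-fold above both other pools in Hg 3 and in Cu 3, in each of the 16 libraries (grey, libraries outside the comparison). Hg and Cu lie on opposite sides of the first component, and Hg 3 and Cu 3 both lie high on the second.

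Whether transcript levels differed between the metals was tested gene by gene in 16276 genes that passed a filter on low counts. Between Hg and Cu 2317 genes were called, 14.2% of those tested, and the edgeR quasi-likelihood test put 1606 (9.87%) above in Hg and 711 (4.37%) above in Cu. A call here is a p under 0.05 after Benjamini-Hochberg adjustment over all tested genes. The difference was thus spread over many genes, with 69.3% of calls higher in Hg. That split depends on how libraries are scaled. With upper-quartile scaling in place of TMM factors 1190 calls favoured Hg and 1224 favoured Cu, so that 49.3% of calls were higher in Hg. The median log2 fold change of all tested genes was 0.003 with TMM and -0.097 with upper-quartile scaling. DESeq2 size factors gave 1638 and 703, and library totals alone gave 1450 and 647. No gene changed its direction between these scalings among those called in both. Without Hg 3 and Cu 3, 1136 genes were called higher in Hg and 442 higher in Cu. The number higher in Cu was 379 without Cu 1 and 470 without Hg 1, and the total was 1529 without Cu 1.

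Most of the differences were small. The median log2 fold change (Hg over Cu) was 0.71 for genes higher in Hg, a 1.63-fold difference, with quartiles of 0.5 and 0.99 and a median standard error of 0.13. For genes higher in Cu the median was -0.69, with quartiles of -1.01 and -0.5 and a median standard error of 0.17. A 2-fold or larger difference was seen in 393 genes higher in Hg (24.5%) and in 183 higher in Cu (25.7%). At least 4-fold there were 41 and 14 genes, and at least 8-fold 7 and 1. With upper-quartile scaling the 2-fold counts were 296 and 272. When the test asked for more than a 1.5-fold difference, 320 genes were called higher in Hg and 67 higher in Cu. The smallest called difference was 0.24 log2 units for genes higher in Hg and 0.27 for genes higher in Cu.

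**Figure D2:**
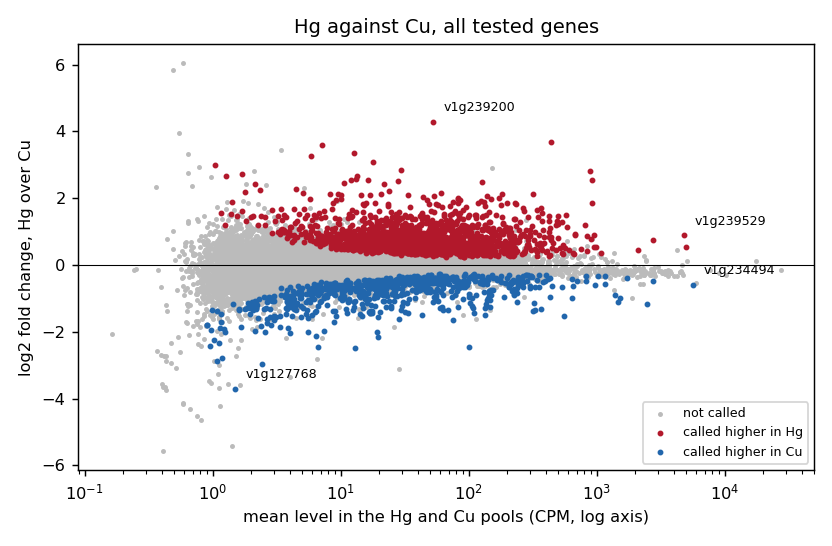
Log2 fold change of Hg over Cu for each of the 16276 tested genes against its mean level in the Hg and Cu pools (CPM, log axis). Red points were called higher in Hg (1606) and blue points higher in Cu (711, edgeR adjusted p under 0.05), and the grey points of largest size lie at low levels.

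The level of a gene set how small a difference could be called. Genes were ranked by mean level and cut into 3 classes of equal size. In the lowest class (up to 6.16 CPM) 3.83% were called, in the middle class 11.8% and in the highest class (from 23.9 CPM) 27.1%. The median standard error of the log2 fold change was 0.36, 0.18 and 0.12 in these classes, and the smallest called difference 0.58, 0.36 and 0.24 log2 units. Direction also followed the level. Genes higher in Hg made up 36.1% of calls in the lowest class, 64.5% in the middle and 76.1% in the highest. With upper-quartile scaling the same shares were 20.6%, 44.5% and 56.3%, so the order of the classes held while the split itself moved. The median log2 fold change of all genes, called or not, also rose with level, at -0.09, 0.02 and 0.05 with TMM.

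Large fitted differences without a call came mostly from single pools. Of the tested genes 27 differed at least 8-fold and were not called, 5 of them higher in Hg and 22 higher in Cu. In 21 of these 27 over 80% of the CPM of the higher metal lay in 1 library, which was Cu 3 for 17 genes and Hg 3 for 4. Their median level in the higher metal was 1.46 CPM. Called genes rarely had overlapping pools. In 2288 of the 2317 called genes all 3 pools of 1 metal lay above all 3 of the other, against 32.3% of all tested genes. The calls were made on these same pools, so such separation is largely built in and nothing is read from it.

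Complete silence in 1 metal was not a feature of the tested genes. Of these, 0 had at most 3 counts over all pools of 1 metal and at least 5 counts in every pool of the other. Over all 27273 gene models 6 met that rule, all with too few counts to be tested. At equal depth (each library thinned to 5494659 counts, by expectation) the Hg libraries held 19722 to 19930 gene models with a count and the Cu libraries 19969 to 20044. The Hg mean was 19830 ± 104 and the Cu mean 20002 ± 38.1 (SD, n = 3 each), a difference of -173 models. The groups did not overlap, and the two-sided exact permutation test gave p = 0.1, the smallest that 3 against 3 allows. The 10 libraries outside the comparison held 19823 (Zn 2) to 20249 (Cd 1). Of these, Zn 2, Zn 1 (19846) and Cd 3 (19926) lay within the range of the Hg libraries. The 100 most abundant gene models took 29.1%, 31.4% and 32.8% of counts in Hg 1 to Hg 3 and 34.4%, 32.7% and 36.5% in Cu 1 to Cu 3. The means were 31.1% ± 1.84 and 34.6% ± 1.91 (SD, n = 3 each, exact permutation p = 0.2, two-sided), and Hg 3 lay just above Cu 2.

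Each direction is shown by the called gene with the largest fold change and the called gene with the largest difference in CPM, among genes whose Hg and Cu pools do not overlap. Of the genes higher in Hg, v1g239200 differed most by fold. It measured 86.6, 128 and 84.4 CPM in Hg 1 to Hg 3 and 3.57, 5.79 and 5.79 CPM in Cu 1 to Cu 3. Every Hg pool thus lay far above every Cu pool. The log2 fold change was 4.29 ± 0.22 (SE), a 19.6-fold difference (edgeR adjusted p = 5.17e-09). The controls measured 3.14 ± 0.85 CPM (SD, n = 4), the Cd pools 2.52 ± 0.22 and the Zn pools 3.36 ± 0.76 CPM (SD, n = 3 each). Cu 2 and Cu 3 lay a little above the highest of the libraries outside the comparison (4.23 CPM in control 3), and the Hg pools far above it.

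The largest difference in CPM among genes higher in Hg belonged to v1g239529. It measured 5190, 6310 and 7090 CPM in Hg 1 to Hg 3 and 2810, 3560 and 3640 CPM in Cu 1 to Cu 3. The log2 fold change was 0.89 ± 0.12 (SE), a 1.86-fold difference (edgeR adjusted p = 4.39e-05). Both metals stood far above the rest. The controls measured 280 ± 13 CPM (SD, n = 4), the Cd pools 284 ± 15 and the Zn pools 273 ± 9.2 CPM (SD, n = 3 each). The fitted log2 difference from the controls was 4.47 in Hg and 3.58 in Cu. The transcript was thus abundant in both metals and about as abundant in Cd and Zn as in controls, with a smaller step between Hg and Cu than between either and the controls. It was not called in the test for more than a 1.5-fold difference (edgeR adjusted p = 0.0815), while v1g239200 was called under every alternative (edgeR and DESeq2 adjusted p of 6.77e-58 to 0.000267).

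Of the genes higher in Cu, v1g127768 differed most by fold. The Hg pools held 0, 2 and 2 counts of it and the Cu pools 15, 17 and 20, or 0, 0.288 and 0.256 CPM against 2.55, 2.9 and 2.9 CPM. The summed counts gave a ratio of 14.3 between Cu and Hg once library size was taken into account (exact binomial 95% interval 5.24 to 54.3, for counting error only). The fitted log2 fold change was -3.72 ± 0.49 (SE) (edgeR adjusted p = 4.05e-05). The controls measured 2.6 ± 0.69 CPM (SD, n = 4), the Cd pools 2.09 ± 0.52 and the Zn pools 3.96 ± 0.83 CPM (SD, n = 3 each). For this gene copper lay with the libraries outside the comparison, and mercury below all of them, at a level where few counts were seen.

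The largest difference in CPM among genes higher in Cu was that of v1g234494. It measured 4480, 4010 and 4980 CPM in Hg 1 to Hg 3 and 7280, 6150 and 6960 CPM in Cu 1 to Cu 3. The log2 fold change was -0.6 ± 0.15 (SE), a 1.51-fold difference (edgeR adjusted p = 0.0114). The controls measured 8770 ± 1200 CPM (SD, n = 4), the Cd pools 9020 ± 2000 and the Zn pools 11100 ± 640 CPM (SD, n = 3 each). Both metals thus had lower means than the other 3 groups, with Hg the lowest. The call ended without Hg 2 (log2 fold change -0.54, edgeR adjusted p = 0.0564), without Cu 1 (-0.55, edgeR adjusted p = 0.0573) and in the test for more than 1.5-fold (edgeR adjusted p = 1). Over all alternatives its adjusted p ran from 0.00128 to 1.

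**Figure D3:**
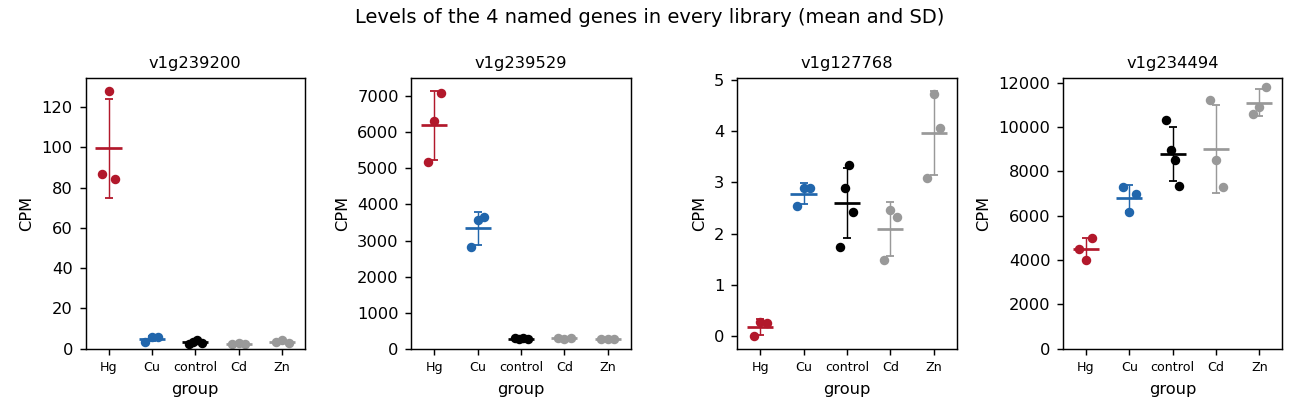
Level (CPM, linear axes) of the 4 named genes in every library, by group, with the group mean (line) and SD (bars). In v1g239200 and v1g127768 the Hg pools lie far from all other groups, and in v1g239529 and v1g234494 the Cu pools lie between the Hg pools and the control mean.

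The contrast itself does not say which metal had moved, so the called genes were placed against the 10 libraries outside it (4 control, 3 Cd and 3 Zn). This is a description with no test. The calls were made on these same Hg and Cu pools, so an excess over all tested genes is partly built in. Of the 1606 genes higher in Hg, 1435 (89.4%) had all 3 Hg pools above all 10 of these libraries, against 14.1% of all tested genes. All 3 Cu pools lay above the 10 in 435 of them (27.1%) and below the 10 in 18 (1.12%). The shares of all tested genes were 4.45% above and 2.05% below. Of the 711 genes higher in Cu, 496 (69.8%) had all 3 Hg pools below the 10, against 8.71% of all tested genes. That count was 299 of the 379 genes called without Cu 1 and 298 of the 442 called without Hg 3 and Cu 3. Of the 711 genes, all Cu pools lay above the 10 in 23 (3.23%) and below in 45 (6.33%), beside the same 4.45% and 2.05%. Over all tested genes the Hg pools lay outside the range of the 10 in 22.8% and the Cu pools in 6.5%. In either direction mercury was thus the metal that was more often out of range. With upper-quartile scaling the Hg pools were above the 10 in 89.7% of genes higher in Hg, against 11% of all tested genes. They were below the 10 in 76.3% of genes higher in Cu, against 14.4% of all tested genes.

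Out of range here means that all 3 pools of a metal lay beyond all 10 libraries on the same side, so single pools of a metal that is not out of range can still lie beyond them. Genes in which mercury was out of range and copper was not made up most calls. In 998 of the genes higher in Hg (62.1%) all Hg pools lay above the 10 libraries and copper was not out of range. That held for 10.3% of all tested genes. In 385 of the 998 (38.6%) every Cu pool lay within the range of the 10. Median levels in that class were 44.5 CPM in Hg, 27.2 CPM in Cu and 26.4 CPM in controls. In 446 genes higher in Cu (62.7%, against 7.61% of all tested genes) all Hg pools lay below the 10 and Cu was not out of range. Every Cu pool lay within the range in 213 of them (47.8%). The within-range share over all tested genes was not counted, so nothing is read from the 38.6% and 47.8%. Medians in this second class were 17.4 CPM in Hg, 30.8 CPM in Cu and 31.1 CPM in controls. Copper and control levels were close in both classes, with a median log2 difference of Cu from control of 0.09 in the first and -0.03 in the second.

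Genes in which both metals were out of range on the same side were the next class. In 435 genes higher in Hg (27.1%, against 3.81% of all tested genes) both sets of pools lay above the 10 libraries. Their median levels were 91.9 CPM in Hg, 49.4 CPM in Cu and 30.7 CPM in controls. The median log2 difference from control was 1.35 in Hg and 0.58 in Cu, and 138 of these genes (31.7%) differed at least 2-fold between the metals, against 22.8% in the class in which mercury was above and copper not out of range. v1g239529 belongs to this class. On the low side 45 genes higher in Cu (6.33%, against 1.07% of all tested genes) had both sets below the 10. Their medians were 37.9 CPM in Hg, 53.6 CPM in Cu and 77.1 CPM in controls. These classes were formed from the same Hg and Cu pools that were tested against each other, so the size of a difference within a class is a description.

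Copper was out of range and mercury was not in few genes, called or not, with 1.58% of all tested genes in this class. There were 16 such genes higher in Hg, 0.996% of that direction. Their medians were 13.1 CPM in Hg, 8.29 CPM in Cu and 12.6 CPM in controls. Another 18 were higher in Cu, 2.53% of that direction. Their medians were 34.9 CPM in Hg, 73.7 CPM in Cu and 41.2 CPM in controls. These shares are near that of all tested genes, so nothing is read from them. In 7 called genes the metals lay on opposite sides of the 10 libraries, and 7 of all tested genes did so. Neither metal had all its pools beyond the 10 in the remaining 155 genes higher in Hg (9.65%) and 197 higher in Cu (27.7%). The share of all tested genes was 75.6%. The median log2 differences from control were 0.33 in Hg and -0.22 in Cu for the first and -0.41 and 0.22 for the second.

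Log2 differences from the control mean were also set side by side for all called genes. These comparisons share the control libraries with each other and the metal libraries with the contrast, so they are given as levels only. Genes higher in Hg had a median of 0.87 in Hg and 0.15 in Cu. Hg was at least 1.5-fold above control in 1185 of them (73.8%) and Cu in 238 (14.8%), against 12.6% and 4.38% of all tested genes. Genes higher in Cu had a median of -0.67 in Hg and 0.03 in Cu. Hg was at least 1.5-fold below control in 410 of these (57.7%) and Cu at least 1.5-fold above in 36 (5.06%), against 13% and 4.38% of all tested genes. The Cd and Zn pools took no part in the contrast. Their medians were -0.03 and -0.05 for genes higher in Hg and 0.05 and 0.08 for genes higher in Cu, where all tested genes had 0 and -0.01. Between 97.2% and 97.9% of the called genes, by direction and metal, had Cd and Zn levels within 1.5-fold of the controls. Of all tested genes 94.4% (Cd) and 94.3% (Zn) did so, so this is not particular to the called genes.

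**Figure D4:**
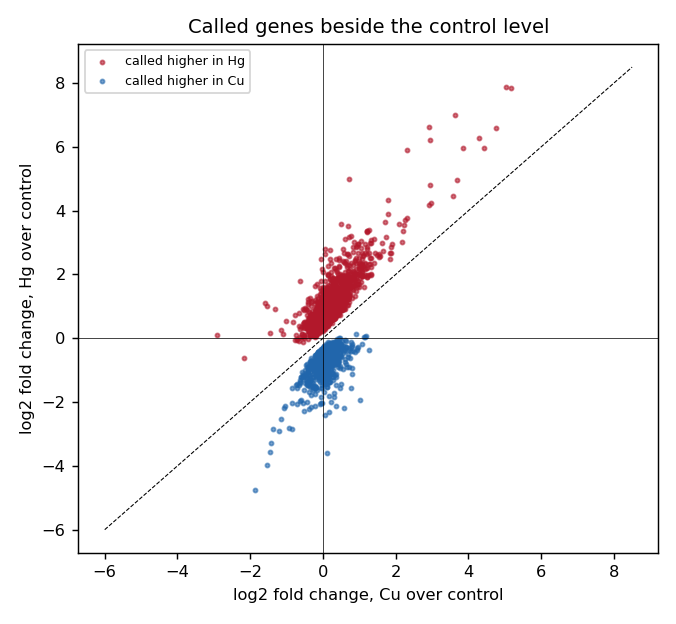
Log2 fold change over control in Cu (horizontal) and Hg (vertical) for the 1606 genes called higher in Hg (red) and the 711 called higher in Cu (blue), with the line of equality dashed. Most red points lie above 0 on the Hg axis and near 0 on the Cu axis, and most blue points lie below 0 on the Hg axis and near 0 on the Cu axis.

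The called genes held a sizeable part of all counts. Genes higher in Hg took 18.5%, 18.3% and 17.6% of counts in Hg 1 to Hg 3 and 10.1%, 11.2% and 10.1% in Cu 1 to Cu 3. The libraries outside the comparison held 8.67% ± 0.51 (SD, n = 4) in controls, 8.58% ± 0.47 in Cd and 8.24% ± 0.19 in Zn (SD, n = 3 each). Genes higher in Cu took 4.94%, 4.93% and 5.07% of counts in the Hg pools and 8.06%, 7.79% and 7.49% in the Cu pools, beside 7.78% ± 0.31 (SD, n = 4) in controls. The share of the Cu pools in these genes was thus at the level of the controls. These shares are of raw counts and use no scaling factor, but the genes were chosen for their difference, so the gap between Hg and Cu is a description. The summed difference rested on more genes in the direction of Hg than in that of Cu. The 10 genes with the largest difference in mean CPM made up 16.5% of the summed difference of genes higher in Hg and 35.2% of that of genes higher in Cu. To reach 50% of the summed difference took 128 genes higher in Hg and 27 higher in Cu.

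Hg 3 and Cu 3 stood apart on the second component. The genes called from the other 4 pools of the 2 metals were therefore read in Hg 3 against Cu 3, which had no part in those calls. Of 1136 genes called higher in Hg, 1113 (98%) were higher in Hg 3 than in Cu 3. Of 442 called higher in Cu, 403 (91.2%) were lower in Hg 3 than in Cu 3. Among the 14926 genes not called, 48.3% were higher in Hg 3. The median fitted log2 fold change in the 4 pools was 0.84 for genes higher in Hg and -0.93 for genes higher in Cu. The median log2 CPM difference in the held-out pair was 0.71 and -0.51. These are unlike measures, and the genes were called in the 4 pools, so nothing is read from the smaller sizes in the pair. The 4 pools alone called 1085 of the 1606 genes (67.6%) and 368 of the 711 (51.8%). The gap between the directions was not tested.

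**Figure D5:**
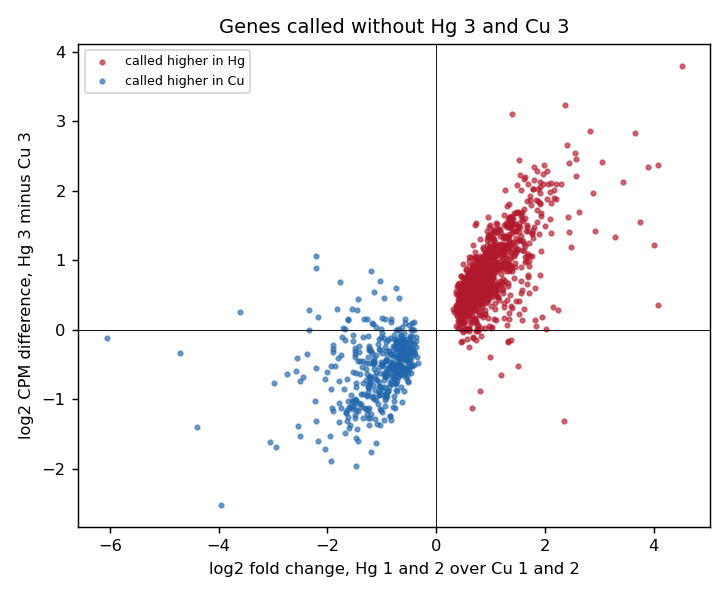
Genes called from Hg 1 and 2 against Cu 1 and 2, with the log2 fold change in those 4 pools (horizontal) against the log2 CPM difference between the held-out libraries Hg 3 and Cu 3 (vertical). Of the red points (higher in Hg) 98% lie above 0, and of the blue points (higher in Cu) 91.2% lie below 0.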

How the data were processed

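The authors deposited 1 table per metal with raw counts per gene model for 27273 models. Per the file headers each holds the 4 control libraries and the 3 of its metal. Control counts did not differ between the tables. STAR, Partek and DESeq are listed, without versions or roles, per the submitters' processing notes. Genome build and strand were not given in the sources used here. No mean or comparison made by the authors was used.

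Counts were joined on the identifier and analysed in R 4.3.3 with edgeR 4.0.16. All 16 libraries entered 1 robust quasi-likelihood fit with 1 term per group (default filterByExpr, TMM factors), and the contrast was Hg minus Cu. The libraries outside the contrast served the filter, scaling and dispersion (biological coefficient of variation 16.7%). Standard errors were derived from the log2 fold change and its F statistic. Principal components and log2 CPM used a prior count of 2. Per the labels each pool was its own group of anemones, so p-values reflect pool-to-pool spread. Named genes had at least 1 CPM in the higher metal, at most 2 each way because identifiers carry no names. Alternatives included DESeq2 1.42.0, other scalings and filters, a fit of the 6 libraries, a replicate block and leaving out pools. The comparison, gene choices and settings were chosen with earlier results of these data known, and library totals alone was added after upper-quartile scaling had been seen.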

Additional observations from a re-analysis of the deposited data

Results flagged for a closer look

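Of 6 values examined over the 4 controls, 1 had a control distant from the rest. Genes called higher in Hg took 7.91% of counts in control 1, where the other controls held 8.87% to 8.99%. Chance flags about 1 in 20 such groups, and the control libraries enter no mean of the contrast.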

How the results depend on the processing

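Of the calls and values compared under the alternatives, 0 reversed, and 0 of the 2317 genes were called in the opposite direction under any of them. Upper-quartile scaling gave 1224 genes higher in Cu, and the test for more than 1.5-fold gave 387 genes, 320 higher in Hg and 67 higher in Cu. Without Hg 3 and Cu 3, 442 were higher in Cu. Leaving out each pool in turn gave 1529 to 2018 genes in all, 1150 to 1426 higher in Hg and 379 to 592 higher in Cu, and a fit with fewer pools has less power by construction. The cause of the shift with upper-quartile scaling was not tested. A fit of the 6 libraries alone called 1352 and 782, DESeq2 called 1591 and 735, no filter on low counts 1394 and 646, and the stricter filter (5 CPM in 3 libraries) 1612 and 780, where v1g127768 could not be tested. With a replicate block 1514 and 699 were called, and 1154 and 630 in the 6 libraries. Deviations of same-numbered Hg and Cu pools had correlations of -0.02, 0.07 and 0.24, the last for Hg 3 with Cu 3. Those of differently numbered pools ran from -0.18 to 0.13, so Hg 3 with Cu 3 was the highest. The numbers were not taken as pairs in the main fit, and the replicate block is the alternative. The difference in genes detected ran from -223 to -119 and that in the share of the top genes from -4.35 to -2.11 percentage points.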
